A study of Mus musculus with 12 samples.

Results

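The genes of the major histocompatibility complex (MHC, called H2 in the mouse) and of antigen presentation were followed in mouse liver by one-colour microarray. The set was chosen by name, not by measured values: every gene probe whose accession maps to a symbol starting with H2-, together with B2m, Cd74, Ciita, Nlrc5, Tap1, Tap2, Tapbp and Cd1d1. It held 45 genes read by 56 probes, out of 21613 named genes on the array. Of the 45, 27 were class I heavy chain genes, 9 were class II chain and peptide editor genes, 6 were class I partners and 2 were class II partners. The last, H2-Ke6, lies in the same region but encodes an enzyme and is given apart. RefSeq annotates H2-K2, H2-Q5 and H2-T10, counted here with the class I heavy chain genes, as transcribed pseudogenes.

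Livers came from male C57BL/6NJcl mice that were 6 weeks old when the diets began. The CDAHFD groups ate a choline-deficient, amino acid-defined diet with 60 kcal% fat and 0.1% methionine, which is used to bring on steatohepatitis, for 1, 2 or 6 weeks. The control groups ate CE-2, a standard chow, for 1, 2 or 6 weeks. The animals were then 7, 8 and 12 weeks old. The 2 diets differ in fat, amino acid source and choline together, so no single component can be told apart. Each of the 6 groups held 2 arrays, so n = 2 for every group value below. The labels do not say that the 2 samples of a group were separate animals, and p-values measure only the spread between these arrays.

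Class I molecules pair an H2 heavy chain with beta-2 microglobulin, encoded by B2m, and carry peptides cut in the cytosol by the proteasome and pumped into the endoplasmic reticulum by the Tap1 and Tap2 transporter. Nearly all nucleated cells, hepatocytes included, make them, and Nlrc5 is the main transcriptional activator of their genes. Class II molecules pair an alpha with a beta chain, are held by the invariant chain Cd74 until they reach the endosome, and are loaded there with the help of the DM editor, which the DO molecule restrains. Class II is made mainly by dendritic cells, B cells and macrophages under the coactivator Ciita. C57BL/6 mice carry the b haplotype, which lacks a working E alpha chain.

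Of the 45 genes, 34 were tested because some group had a probe well above background on each of its arrays, and 30 were well above background on all 12 arrays. The 9 untested class I genes were H2-M1, H2-M5, H2-M9, H2-M10.1, H2-M10.2, H2-M10.3, H2-M10.4, H2-M10.6 and H2-T18, and the 2 untested class II genes were H2-Eb2 and H2-DMb2. Levels are log2 signals relative to the 75th percentile of the array. Differences are CDAHFD minus control on the log2 scale, given with the standard error of the limma fit. From each, the median difference over all 13900 genes tested was subtracted: 0.13 for 1 week, 0.05 for 2 weeks, 0.03 for 6 weeks and 0.08 for the mean of the weeks. A gene was called higher or lower when its Benjamini-Hochberg adjusted p over all genes was below 0.05, and the adjusted p belongs to the difference before the median was subtracted.

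The arrays read as liver: all 5 hepatocyte markers were well above background in every group, and the pancreatic genes Cpa1, Prss1 and Pnlip were so on no array. Between 45.4% and 49.7% of probes were well above background on CDAHFD arrays and between 40.4% and 44.4% on control arrays. On control replicate 1 at 1 week an area of 1240 spots was marked as dim, of which 308 were themselves far below every other array. The area also took in the spots of Ciita and H2-M2. The 2 control arrays of 1 week differed from each other more than those of other groups did (SD over genes of 0.85, against 0.29 to 0.49).

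Class II genes were higher in CDAHFD livers together and at every week, whereas class I genes moved both ways. Over all tested members, 22 of 34 were called at 1 week where 40.9% of all genes were, 23 at 2 weeks (37.8%), 18 at 6 weeks (40.7%) and 28 in the average (61.3%). The median of the 7 tested class II genes was 1.59 at 1 week, 1.87 at 2 weeks and 1.75 at 6 weeks, or 3.01-, 3.66- and 3.36-fold. The median of the 18 tested class I genes was -0.06, 0.23 and 0.28 at the same weeks. Class II differences spanned 0.86 to 2.29 at 1 week, 1.29 to 2.36 at 2 weeks and 1.03 to 2.12 at 6 weeks, so all 7 were positive each time. Class I differences spanned -1.26 to 1.51, -0.71 to 1.97 and -0.53 to 2.76.

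H2-Oa, H2-Ob, the class II partner Ciita and the class I gene H2-T-ps could be tested only because the CDAHFD arrays measured them. Their entry depended on the outcome, and the counts, medians and ranges above include those of them that belong to each set. The class counts and medians that come next leave them out. Of the 5 class II genes well above background on all 12 arrays, 5 were called higher at each week, with medians of 1.51, 1.87 and 1.93. Of the 17 such class I genes, 5, 7 and 6 were called higher and 5, 1 and 1 lower, with medians of 0.04, 0.03 and 0.26. Counting all tested genes, at 1 week 7 class II genes were called higher, against 5 of 18 class I genes, where 25.9% of all genes tested were. In the same comparison 5 class I genes were called lower, where 15% of all genes were. At 2 weeks 6 class II and 8 class I genes were called higher (22.9% of all genes) and 1 class I gene lower (14.9%). At 6 weeks 6 class II and 6 class I genes were called higher (24.5%) and 1 class I gene lower (16.2%). In the average over weeks 7 class II and 9 class I genes were called higher (35.6%) and 5 class I genes lower (25.7%). The class I share of higher calls was thus near that of all genes at 1 and 6 weeks. Among genes well above background on all arrays, all 6 CDAHFD arrays stood above all 6 control arrays for 5 of 5 class II genes and for 6 of 17 class I genes, where 21% of all genes tested did. They stood below all 6 for 3 of these class I genes, where 11% of all genes did. In liver homogenate more cells of a type and more RNA per cell cannot be told apart.

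**Figure D1:**
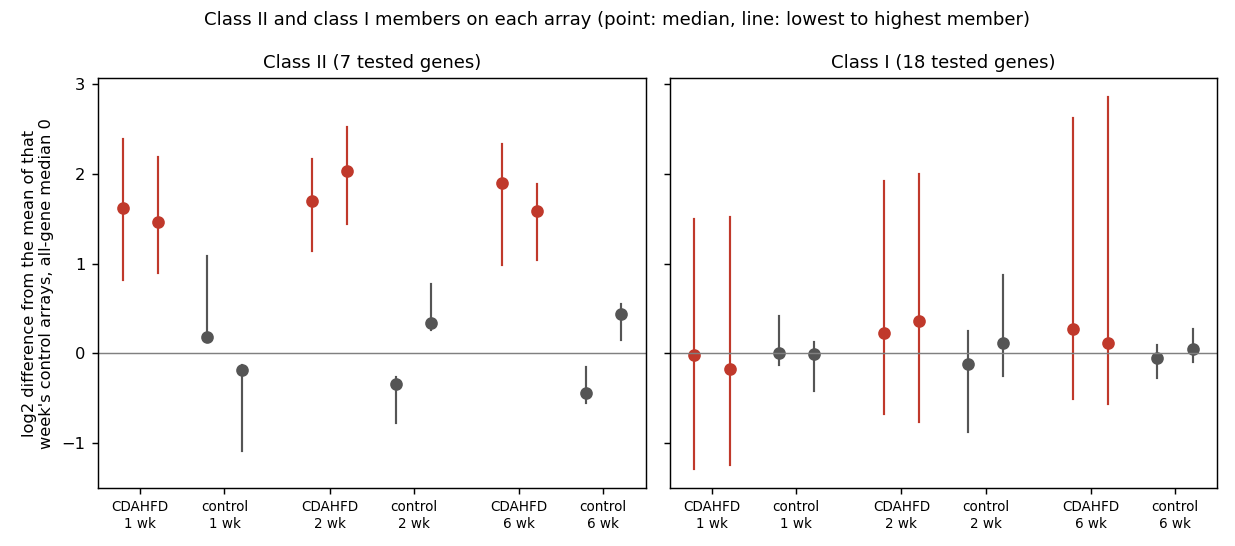
Median (point) and lowest to highest member (line) of the log2 difference of class II (left) and class I genes (right) on each array from the mean of that week's control arrays, with the median of all genes set to 0; CDAHFD arrays are red and control arrays grey. The class II median lay between 1.47 and 2.03 on the CDAHFD arrays and between -0.44 and 0.44 on the control arrays, while the class I medians of both diets lay between -0.17 and 0.36.

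The A chains form the class II molecule of this strain. H2-Ab1, the A beta chain, stood at 2.49 and 2.30 on CDAHFD arrays against 0.90 and 0.60 on control arrays at 1 week. At 2 weeks it stood at 2.33 and 2.73 on CDAHFD against 0.39 and 1.08 on control arrays, and at 6 weeks at 3.13 and 3.01 on CDAHFD against 0.93 and 1.88 on control arrays. All CDAHFD values lay above all control values, and the differences were 1.51 ± 0.32, 1.75 ± 0.32 and 1.63 ± 0.32 (adjusted p = 0.00337, 0.00211 and 0.00286). Its second probe gave 1.42, 1.74 and 1.81.

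H2-Aa, the A alpha chain, stood at -1.01 and -1.38 on CDAHFD against -2.61 and -2.99 on control arrays at 1 week. It stood at -0.95 and -0.58 on CDAHFD against -3.78 and -2.56 on control arrays at 2 weeks, and at -0.12 and -0.42 on CDAHFD against -2.86 and -1.75 on control arrays at 6 weeks. The groups did not overlap. The differences of 1.47 ± 0.45, 2.36 ± 0.45 and 2.00 ± 0.45 were called at each week (adjusted p = 0.0221, 0.00357 and 0.00731). The 1-week call was lost without control replicate 2 (1.3), CDAHFD replicate 1 (1.32) or CDAHFD replicate 2 (1.62) of that week, and the 6-week call without CDAHFD replicate 1 of 6 weeks (1.82).

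H2-Eb1, the E beta chain, which in this haplotype has no working partner, rose as the A chains did. Its levels were 2.22 and 1.78 on CDAHFD against 0.41 and 0.01 on control arrays at 1 week, 2.06 and 2.39 on CDAHFD against 0.03 and 0.58 on control arrays at 2 weeks, and 2.91 and 2.66 on CDAHFD against 0.33 and 1.3 on control arrays at 6 weeks. The differences were 1.66 ± 0.33, 1.87 ± 0.33 and 1.93 ± 0.33 (adjusted p = 0.00257, 0.0018 and 0.00139). H2-Eb2, a further E beta gene, was well above background on 2 CDAHFD arrays and on no control array and was not tested. Its levels ran from -7.76 to -6.88 on CDAHFD and from -9.20 to -8.57 on control arrays, without overlap.

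Class II genes are known to be read through a promoter module in which an X box, bound by the RFX complex, lies a short way upstream of a Y box, bound by NF-Y. The promoters of H2-Aa and H2-Eb1 are shown because their chains rose at every week and both carry the letters of the 2 boxes in that order. They are the RefSeq windows from 250 bases before to 50 bases after the gene start in GRCm38.p6, chr17:34287774-34288073 on the minus strand for H2-Aa and chr17:34305617-34305916 on the plus strand for H2-Eb1, written 5′ to 3′ along the gene. Capitals mark the letters CTNGCAAC (X) and GATTGG (Y) or their reverse complements.
H2-Aa: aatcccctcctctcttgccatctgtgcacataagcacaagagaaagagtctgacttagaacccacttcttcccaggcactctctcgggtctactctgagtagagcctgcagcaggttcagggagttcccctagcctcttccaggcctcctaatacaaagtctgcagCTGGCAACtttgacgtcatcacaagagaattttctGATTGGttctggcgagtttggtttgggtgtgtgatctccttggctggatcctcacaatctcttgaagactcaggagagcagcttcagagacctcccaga
H2-Eb1: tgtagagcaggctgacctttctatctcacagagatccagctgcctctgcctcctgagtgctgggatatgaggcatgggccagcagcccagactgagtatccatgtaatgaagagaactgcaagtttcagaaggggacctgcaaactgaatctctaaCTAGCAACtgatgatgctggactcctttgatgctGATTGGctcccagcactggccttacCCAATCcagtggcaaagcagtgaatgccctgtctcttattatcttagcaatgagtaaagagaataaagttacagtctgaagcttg
Counted from the gene start, the X letters began at -84 in H2-Aa and at -94 in H2-Eb1, with 27 and 26 bases between the X letters and the Y letters that follow. Both strands were searched, and the 2 motifs share no letters here. Of 32851 mouse promoter windows, 16.1% held the Y letters, 3.42% the X letters and 0.572% both. Of the 6 tested class II genes with a window, 6 held the Y letters and 3 both (H2-Aa, H2-Eb1 and H2-Ob), against 7 and 1 of 12 tested class I genes. H2-Ab1, Cd74 and Ciita had no window. A match is a description of the letters and not of binding.

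The DM editor and the DO molecule were higher too. H2-DMb1, the DM beta chain, stood at -0.94 and -1.06 on CDAHFD against -2.49 and -2.96 on control arrays at 1 week, -0.64 and -0.58 on CDAHFD against -2.97 and -2.44 on control arrays at 2 weeks, and 0.12 and -0.28 on CDAHFD against -2.57 and -1.91 on control arrays at 6 weeks. Its differences of 1.59 ± 0.26, 2.05 ± 0.26 and 2.12 ± 0.26 were all called (adjusted p = 0.000608, 0.00015 and 0.000106). H2-DMa, the DM alpha chain, differed by 0.86 ± 0.30, 1.59 ± 0.30 and 1.49 ± 0.30 (adjusted p = 0.0257, 0.00201 and 0.00273). The 1-week call of H2-DMa was lost under quantile normalization (0.66), the percentile over all probes (0.86) and the normexp background correction (0.56), and without control replicate 2 (0.68), CDAHFD replicate 1 (0.90) or CDAHFD replicate 2 (0.82) of that week.

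H2-Oa, the DO alpha chain, was well above background on all 6 CDAHFD arrays and on 1 of 6 control arrays. It stood at -4.52 and -4.79 on CDAHFD against -6.81 and -7.36 on control arrays at 1 week, at -5.03 and -4.68 on CDAHFD against -7.24 and -6.62 on control arrays at 2 weeks, and at -4.50 and -4.77 on CDAHFD against -6.87 and -5.98 on control arrays at 6 weeks. Where a group is below background on both arrays, a fold sets the brighter group against the higher of the dim signal and the lowest signal well above background, and is a bound. H2-Oa was at least 3.9-fold higher at 1 week and at least 3.15-fold higher at 2 weeks, with a fitted difference of 1.75 ± 0.35 at 6 weeks (adjusted p = 0.000486, 0.00109 and 0.00242). With the normexp background correction its differences were 0.28, 0.31 and 0.45 and were not called.

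H2-Ob, the DO beta chain, was well above background on all CDAHFD arrays and on no control array. It was at least 1.53-, 1.23- and 1.5-fold higher at the 3 weeks, with adjusted p of 0.0435, 0.145 and 0.238. Its call at 1 week was lost or turned in 16 of 24 settings, among them leaving out control replicate 2 (0.70), CDAHFD replicate 1 (1.62) or CDAHFD replicate 2 (1.96) of that week and normexp (0.07). Its second probe gave 3.29, 0.54 and 0.55 at the 3 weeks. H2-DMb2, a second DM beta gene, was well above background on no array and ran from -8.22 to -7.50 on CDAHFD and from -8.91 to -8.53 on control arrays.

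The count of 7 class II genes called higher at 1 week was 4 without control replicate 2, CDAHFD replicate 1 or CDAHFD replicate 2 of that week, and 4 with normexp. In the average over weeks all 7 were called whichever array was left out. With normexp the averaged values of H2-Oa (0.35) and H2-Ob (-0.07) were not called.

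Cd74, the invariant chain, stood at 1.44 and 1.1 on CDAHFD against -0.59 and -0.85 on control arrays at 1 week. At 2 weeks it stood at 1.33 and 1.68 on CDAHFD against -0.66 and -0.23 on control arrays, and at 6 weeks at 2.54 and 2.25 on CDAHFD against -0.27 and 0.48 on control arrays. The groups did not overlap, and the differences were 1.87 ± 0.26, 1.90 ± 0.26 and 2.26 ± 0.26 (adjusted p = 0.000315, 0.000291 and 8.95e-05), or 3.66-, 3.73- and 4.79-fold.

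Ciita, the class II coactivator, did not show that pattern on its probe. It was well above background only on the 2 CDAHFD arrays of 1 week, at -6.89 and -7.06, against -7.84 and -6.96 on the control arrays of that week, 1 of which read it within the area of dim spots. At 1 week the difference was 0.30 ± 0.46 (adjusted p = 0.481). It was called lower at 2 weeks (adjusted p = 0.0151), when it was well above background in neither group, so no fold is given. That call was lost under quantile normalization (-1.46) and normexp (-0.59), and without control replicate 1 (-1.58) or CDAHFD replicate 2 (-1.3) of 2 weeks. Among other genes at background, 6 of the 9 untested class I genes were lower on all 6 CDAHFD than on all 6 control arrays, where 11% of all genes tested were. H2-M1, for example, ran from -9.76 to -9.24 on CDAHFD and from -9.17 to -8.60 on control arrays. How many of all untested genes did so was not counted, so this is not read as a result about these genes.

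**Figure D2:**
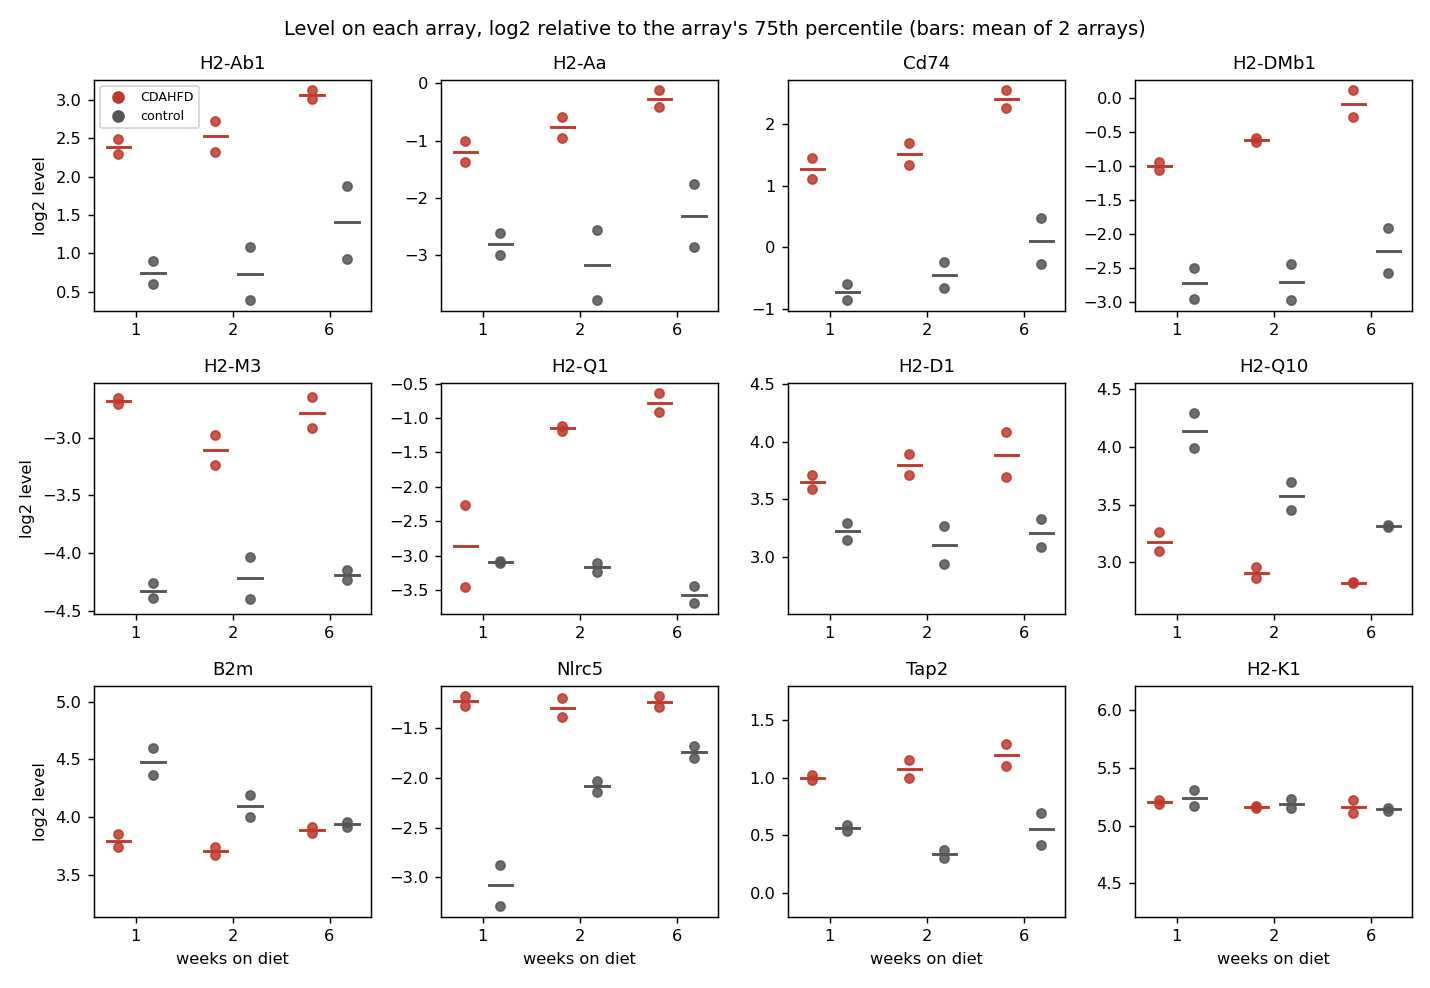
Log2 level of 12 genes on each array, relative to the array's 75th percentile, by weeks on diet; CDAHFD arrays are red and stand left of the grey control arrays, bars are means of 2 arrays, and each panel has its own scale. The class II genes and Cd74 lie apart by diet at every week, H2-Q1 only at 2 and 6 weeks, and the gap of Nlrc5 and B2m narrows as their control arrays, not their CDAHFD arrays, change level.

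Class II genes also varied together between the 2 control arrays of a week. On control replicate 1 of 2 weeks all 7 lay below the mean of the 2 arrays, with a median of -0.34, and on control replicate 2 above it. At 6 weeks the medians of control replicates 1 and 2 were -0.44 and 0.44. At 1 week they were 0.18 and -0.18. The summed linear level of 9 macrophage and monocyte markers, in units of the array's 75th percentile, was 6.71 on control replicate 1 and 4.89 on control replicate 2 at 1 week, 3.91 on replicate 1 and 6.68 on replicate 2 at 2 weeks, and 5.14 on replicate 1 and 6.03 on replicate 2 at 6 weeks, so the control array with the higher class II median had the higher macrophage sum at each week. The summed level of Kupffer cell markers followed the same order at each week, so the match was not particular to the macrophage and monocyte list. The dendritic and B cell sums did not follow that order at every week. The dendritic sum was 3.89 on replicate 1 and 4.28 on replicate 2 at 1 week. At 6 weeks it was 2.54 on replicate 1 and 2.49 on replicate 2. The B cell sum was 0.155 on replicate 1 and 0.138 on replicate 2 at 2 weeks. With only 2 control arrays a week, such an order can match by chance. The part of these cells in the class II levels was not tested.

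Most macrophage and monocyte markers and most tested dendritic cell markers were called higher in CDAHFD livers, while B cell markers were mixed. The summed dendritic level, in which the strongest signals weigh most, was lower on CDAHFD at 1 week and higher at 2 and 6 weeks. The summed macrophage and monocyte level ran from 10.9 to 11.1 on CDAHFD against 4.89 to 6.71 on control arrays at 1 week, from 12.5 to 14.6 on CDAHFD against 3.91 to 6.68 on control arrays at 2 weeks, and from 16.2 to 18.5 on CDAHFD against 5.14 to 6.03 on control arrays at 6 weeks. Of its 9 markers 6, 8 and 8 were called higher at the 3 weeks, where 25.9%, 22.9% and 24.5% of all genes were. Ccr2, one of them, was well above background on no control array and could be tested only through the CDAHFD arrays. Of 8 tested dendritic cell markers 6 were called higher at each week (25.9%, 22.9% and 24.5% of all genes). Flt3 and Cd209a could be tested only through the CDAHFD arrays, being well above background on no control array. Of those well above background on all arrays, Ccr7 and Batf3 were called higher at each week. Itgax, well above background on 5 control arrays, was called higher by 5.5, 5.64 and 6.08. Clec9a, well above background on 4 control arrays, was called higher by 3.11, 2.68 and 2.38. Siglech was called lower at 1 and 2 weeks, and Zbtb46 differed by -0.75, -0.60 and -0.30, not called at any week. Of 4 tested B cell markers 3, 1 and 1 were called higher, which at 2 and 6 weeks was near the share of all genes (22.9% and 24.5%). The summed dendritic level was 3.31 to 3.59 on CDAHFD against 3.89 to 4.28 on control arrays at 1 week, 3.45 to 3.46 on CDAHFD against 3.07 to 3.17 on control arrays at 2 weeks, and 3.76 to 4.56 on CDAHFD against 2.49 to 2.54 on control arrays at 6 weeks, and Xcr1 was below background throughout. The part of these cell types in the class II differences was not tested.

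Class I genes called higher in CDAHFD livers came from the Q, M and T regions and H2-D1. They made up 8 of 18 at 2 weeks, against 22.9% of all genes. H2-M3, which presents N-formylated peptides, stood at -2.66 and -2.71 on CDAHFD against -4.39 and -4.26 on control arrays at 1 week, -3.24 and -2.98 on CDAHFD against -4.40 and -4.03 on control arrays at 2 weeks, and -2.92 and -2.65 on CDAHFD against -4.23 and -4.15 on control arrays at 6 weeks. All CDAHFD values lay above all control values, and the differences were 1.51 ± 0.17, 1.05 ± 0.17 and 1.38 ± 0.17 (adjusted p = 7.43e-05, 0.000666 and 0.000114).

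H2-Q1, a Qa-region gene, stood at -2.27 and -3.46 on CDAHFD against -3.08 and -3.11 on control arrays at 1 week. At 2 weeks it stood at -1.19 and -1.11 on CDAHFD against -3.10 and -3.24 on control arrays, and at 6 weeks at -0.91 and -0.64 on CDAHFD against -3.69 and -3.44 on control arrays. The groups overlapped at 1 week, where the 2 CDAHFD arrays stood far apart, and lay well apart later. The differences were 0.10 ± 0.30, 1.97 ± 0.30 and 2.76 ± 0.30 (adjusted p = 0.557, 0.000581 and 6.13e-05), and at 1 week the value was 0.66 and called without CDAHFD replicate 2 of that week.

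H2-T10, annotated as a transcribed pseudogene, was higher by 0.75 ± 0.20, 1.14 ± 0.20 and 0.77 ± 0.20 (adjusted p = 0.00632, 0.00107 and 0.00928). Its call was lost at 1 week without CDAHFD replicate 1 of that week (0.61) and at 6 weeks without control replicate 1 of 6 weeks (0.50). H2-Q5 was higher by 0.82 ± 0.15, 0.92 ± 0.15 and 0.41 ± 0.15 (adjusted p = 0.000876, 0.00067 and 0.0392), and its 6-week call was lost in 12 of 24 settings, among them leaving out control replicate 1 (0.49), control replicate 2 (0.34) or CDAHFD replicate 2 (0.16) of 6 weeks. H2-Q8 was higher by 0.29 ± 0.14, 0.73 ± 0.14 and 0.66 ± 0.14 (adjusted p = 0.0368, 0.00168 and 0.00312). Its 1-week call was lost without control replicate 1 (0.32), control replicate 2 (0.29) or CDAHFD replicate 1 (0.22) of that week.

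H2-D1, one of the classical heavy chains, stood at 3.71 and 3.59 on CDAHFD against 3.3 and 3.15 on control arrays at 1 week, 3.71 and 3.89 on CDAHFD against 2.94 and 3.27 on control arrays at 2 weeks, and 4.08 and 3.69 on CDAHFD against 3.09 and 3.33 on control arrays at 6 weeks. The CDAHFD values lay above the control values at each week. The difference was 0.29 ± 0.16 at 1 week and was not called (adjusted p = 0.0592), and was 0.64 ± 0.16 at both later weeks (adjusted p = 0.00678 and 0.00732). The later calls were lost without control replicate 1 (0.49) or CDAHFD replicate 2 (0.55) of 2 weeks and without control replicate 1 of 6 weeks (0.52).

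H2-K1, the other classical heavy chain, gave different answers on its 2 probes. The probe used stood between 5.11 and 5.22 on CDAHFD arrays and between 5.13 and 5.31 on control arrays, and its differences of -0.16 ± 0.10, -0.08 ± 0.10 and -0.01 ± 0.10 were not called (adjusted p = 0.84, 0.842 and 0.891). The second probe was higher by 0.98 ± 0.14 at 2 weeks and 0.81 ± 0.14 at 6 weeks (adjusted p = 0.000364 and 0.00123), with 0.10 ± 0.14 at 1 week. With quantile normalization the probe used was called higher at 1 week (0.57), 2 weeks (0.55) and 6 weeks (0.45). No single direction can therefore be given for H2-K1.

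Class I genes that fell included H2-Q10, which encodes a class I protein secreted by hepatocytes. It stood at 3.10 and 3.26 on CDAHFD against 4.29 and 3.99 on control arrays at 1 week, 2.96 and 2.86 on CDAHFD against 3.70 and 3.45 on control arrays at 2 weeks, and 2.83 and 2.82 on CDAHFD against 3.32 and 3.31 on control arrays at 6 weeks. All CDAHFD values lay below all control values. The differences were -1.09 ± 0.13, -0.71 ± 0.13 and -0.53 ± 0.13 (adjusted p = 0.000329, 0.00268 and 0.0119), and the second probe gave -0.92, -0.48 and -0.67. With the control arrays of 2 and 6 weeks in place of those of 1 week, the 1-week value was -0.32 and not called. The 6-week call was lost without control replicate 1 (-0.52) or control replicate 2 (-0.54) of 6 weeks. The hepatocyte marker sum was 95.9 to 114 on CDAHFD against 175 to 213 on control arrays at 1 week, 93.7 to 97.1 on CDAHFD against 125 to 129 on control arrays at 2 weeks, and 91.6 to 104 on CDAHFD against 116 to 118 on control arrays at 6 weeks, and its part in the H2-Q10 difference was not tested.

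The promoters of H2-D1, which rose at 2 and 6 weeks, and H2-Q10, which fell, are shown as the 2 class I genes of opposite direction. They are RefSeq windows in GRCm38.p6, chr17:35262844-35263143 and chr17:35469839-35470138, both on the plus strand, with X and Y letters in capitals as above.
H2-D1: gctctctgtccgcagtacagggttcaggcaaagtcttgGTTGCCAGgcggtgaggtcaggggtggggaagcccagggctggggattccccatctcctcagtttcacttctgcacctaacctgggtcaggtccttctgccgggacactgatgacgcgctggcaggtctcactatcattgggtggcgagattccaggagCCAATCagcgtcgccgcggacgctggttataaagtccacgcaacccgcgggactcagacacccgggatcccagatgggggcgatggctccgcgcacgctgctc
H2-Q10: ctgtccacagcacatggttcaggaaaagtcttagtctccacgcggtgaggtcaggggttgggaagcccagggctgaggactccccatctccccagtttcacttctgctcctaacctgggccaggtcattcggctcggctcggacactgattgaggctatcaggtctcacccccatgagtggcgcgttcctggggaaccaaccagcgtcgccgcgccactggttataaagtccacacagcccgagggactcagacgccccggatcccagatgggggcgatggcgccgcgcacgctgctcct
H2-D1 held the X and the Y letters, both as reverse complements and 151 bases apart, while H2-Q10 held neither, nor the interferon response letters, GAAA followed after 2 further bases by GAAA, which 3.44% of all windows hold. That no match was found says only that these letters are not in this window.

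H2-Q7, H2-K2, H2-M2 and H2-T3 were called lower at 1 week, with differences of -0.47, -0.46, -0.56 and -1.26, and on those probes at no later week. The second probe of H2-K2 was called lower at all 3 weeks, with -0.65, -0.41 and -0.36 (adjusted p = 0.00215, 0.0169 and 0.0247). H2-Q7 belongs to the Qa-2 family and H2-T3 encodes the TL antigen. Without control replicate 1 of 1 week the 4 values were -0.39, -0.40, -0.51 and -0.87 and none was called, and each call was lost without 1 or both CDAHFD arrays of that week too. H2-T3 stood at -5.48 and -5.49 on CDAHFD against -3.98 and -4.74 on control arrays at 1 week, while the control arrays of the later weeks lay between -5.93 and -5.43. Against those later controls the 1-week value of H2-T3 was 0.19. Quantile normalization gave 0.18 for both H2-Q7 and H2-K2 at 1 week.

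Further class I genes were not called at every week. H2-T23, which encodes Qa-1, differed by 0.04, 0.03 and -0.01, and H2-Q4 by -0.33, -0.37 and -0.27, none of them called. H2-T24 differed by 0.35, 0.48 and 0.33 and H2-M11 by -0.61, -0.09 and 0.26, likewise not called. The second probe of H2-T24 gave 0.95, 1.45 and 1.59 and was called higher at 6 weeks (adjusted p = 0.0442). In the average over weeks H2-Q4 was called lower (-0.33, adjusted p = 0.0339) and H2-T24 higher on the probe used (0.38, adjusted p = 0.0338). The averaged call of H2-Q4 was lost or turned in 9 of 24 settings and that of H2-T24 in 13 of 24. H2-T-ps, named as a pseudogene but annotated as protein coding in RefSeq, was called higher at 2 weeks only, at least 1.35-fold (adjusted p = 0.0263), a call lost without control replicate 1 (0.65), CDAHFD replicate 1 (1.63) or CDAHFD replicate 2 (1.40) of 2 weeks. H2-Q2 differed by 0.40, 0.43 and 0.31 and was called at 1 and 2 weeks on the probe used (without control replicate 1 of the week 0.31 and 0.26, not called), but its second probe gave -0.85, -0.41 and -0.54 and was called lower at 1 and 6 weeks. Class I genes are near copies of each other, and whether a probe also binds another member was not tested.

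**Figure D3:**
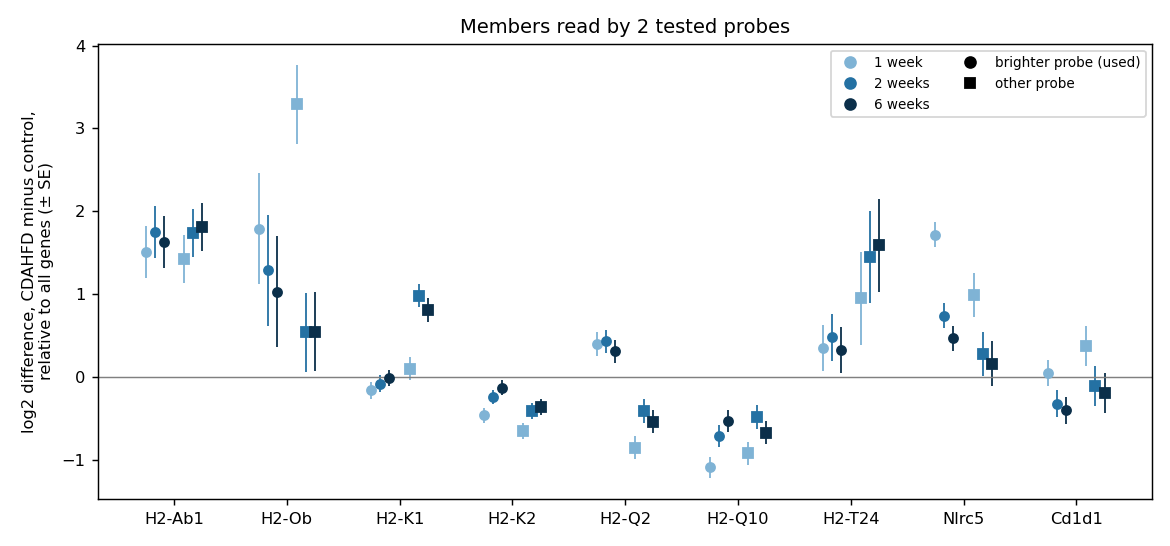
Log2 difference, CDAHFD minus control, after subtracting the all-gene median (± SE of the fit) at 1, 2 and 6 weeks for the 9 members with 2 tested probes; circles are the brighter probe, used throughout, and squares the other. The probes of H2-Ab1 and H2-Q10 lie close together, those of H2-Q2 have opposite signs, and the second probe of H2-K1 is higher at 2 and 6 weeks (0.98 and 0.81).

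The direction of several class I genes changed with quantile normalization, which gives all arrays the same distribution of signal, while that of the 7 class II genes did not. Among all genes tested, the 1390 genes with the strongest signals had a median difference of -0.43 in the average over weeks, and 9 of the 18 tested class I genes and no class II gene lay among them. Under quantile normalization the median of those 1390 was -0.05. Class I genes called higher were then 8, 10 and 8 at the 3 weeks and 11 in the average, and those called lower 2, 1, 1 and 2. The class I medians became 0.19, 0.48 and 0.36, and the class II medians 1.73, 2.02 and 1.87. H2-Q10 stayed lower in the average (-0.38), and H2-Q7 and H2-K2, lower as scaled here, became higher (0.22 and 0.19).

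**Figure D4:**
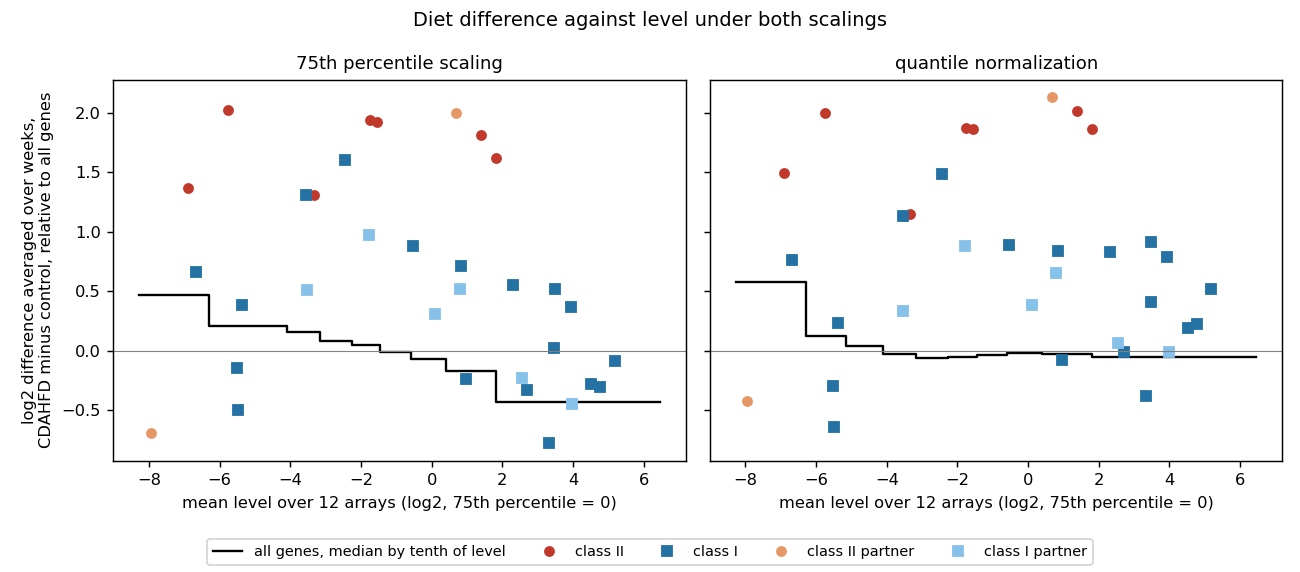
Log2 difference averaged over weeks, CDAHFD minus control, after subtracting the all-gene median, against mean level over 12 arrays, for each tested member under 75th percentile scaling (left) and quantile normalization (right); the black line is the median over successive bins of 1390 genes by level. The line falls to -0.43 in the strongest bin on the left and is at -0.05 there on the right, and the class I points at high level move up with it while the class II points stay between 1.15 and 2.02.

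Of the class I partners, B2m was lower early and the transporter genes were modestly higher. B2m stood at 3.74 and 3.85 on CDAHFD against 4.60 and 4.36 on control arrays at 1 week, 3.67 and 3.74 on CDAHFD against 4.19 and 4.0 on control arrays at 2 weeks, and 3.86 and 3.91 on CDAHFD against 3.96 and 3.91 on control arrays at 6 weeks. The CDAHFD arrays kept within a narrow band, and the control arrays of 1 week were the highest. The differences were -0.81 ± 0.12, -0.44 ± 0.12 and -0.08 ± 0.12 (adjusted p = 0.00113, 0.0221 and 0.781). They became -0.21 at 1 week and -0.02 at 2 weeks under quantile normalization, and -0.28 at 1 week against the later controls, and were then not called. The 2-week call was also lost with normexp (-0.21) and without control replicate 1 (-0.34), CDAHFD replicate 1 (-0.41) or CDAHFD replicate 2 (-0.48) of 2 weeks.

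The B2m promoter, chr2:122147437-122147736 on the plus strand (RefSeq, GRCm38.p6), is shown as that of the light chain shared by class I molecules, which was lower at 1 and 2 weeks. Capitals mark the interferon response letters, from position -139, and the Y letters, from position -54.
B2m: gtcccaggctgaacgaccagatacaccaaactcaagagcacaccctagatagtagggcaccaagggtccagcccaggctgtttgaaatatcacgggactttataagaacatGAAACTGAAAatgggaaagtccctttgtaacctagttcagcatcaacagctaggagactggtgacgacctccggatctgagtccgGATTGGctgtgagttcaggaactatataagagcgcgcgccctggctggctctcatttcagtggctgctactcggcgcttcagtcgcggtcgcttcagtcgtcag
Among tested members with a window, H2-T23 was the only other to hold the interferon response letters, and it was not called at any week.

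Tap2 stood at 0.98 and 1.02 on CDAHFD against 0.54 and 0.59 on control arrays at 1 week, 1.00 and 1.15 on CDAHFD against 0.30 and 0.37 on control arrays at 2 weeks, and 1.1 and 1.29 on CDAHFD against 0.42 and 0.69 on control arrays at 6 weeks. The groups did not overlap, and the differences were 0.30 ± 0.12, 0.69 ± 0.12 and 0.60 ± 0.12 (adjusted p = 0.0161, 0.000806 and 0.00182). The 1-week call of Tap2 was lost without control replicate 1 (0.28), CDAHFD replicate 1 (0.35) or CDAHFD replicate 2 (0.25) of that week. Tap1 differed by 0.34, 0.93 and 0.28 and was called at 2 weeks alone (adjusted p = 0.0263), a call lost without control replicate 1 (0.55) or CDAHFD replicate 2 (0.72) of 2 weeks. Tapbp, the tapasin gene, differed by 0.15, 0.29 and 0.50 and was called at 2 and 6 weeks (adjusted p = 0.0344 and 0.00359), and the 2-week call was lost when any one array of that week was left out, at 0.24 to 0.34. Cd1d1, which presents lipids to natural killer T cells, differed by 0.05, -0.32 and -0.40 and was not called.

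Nlrc5, the class I activator, stood at -1.28 and -1.18 on CDAHFD against -2.87 and -3.29 on control arrays at 1 week. It stood at -1.20 and -1.39 on CDAHFD against -2.14 and -2.03 on control arrays at 2 weeks, and at -1.18 and -1.29 on CDAHFD against -1.80 and -1.68 on control arrays at 6 weeks. All CDAHFD values lay between -1.39 and -1.18, whereas the control values differed between the weeks. The differences were 1.72 ± 0.15, 0.74 ± 0.15 and 0.47 ± 0.15 (adjusted p = 1.63e-05, 0.0021 and 0.0211). The 6-week call was lost under quantile normalization (0.42), with the mean of its probes (0.31) and without control replicate 1 (0.41), control replicate 2 (0.52) or CDAHFD replicate 1 (0.38) of 6 weeks, among others. Its second probe gave 0.99, 0.28 and 0.16.

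H2-Ke6, the enzyme gene in the region, was lower, with differences of -0.68, -0.68 and -0.55 (adjusted p = 0.0046, 0.0021 and 0.00591), and all its CDAHFD values lay below all its control values. The 1-week call was lost under quantile normalization (-0.34) and without CDAHFD replicate 1 of that week (-0.54), and the 6-week call without control replicate 1 of 6 weeks (-0.44).

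**Figure D5:**
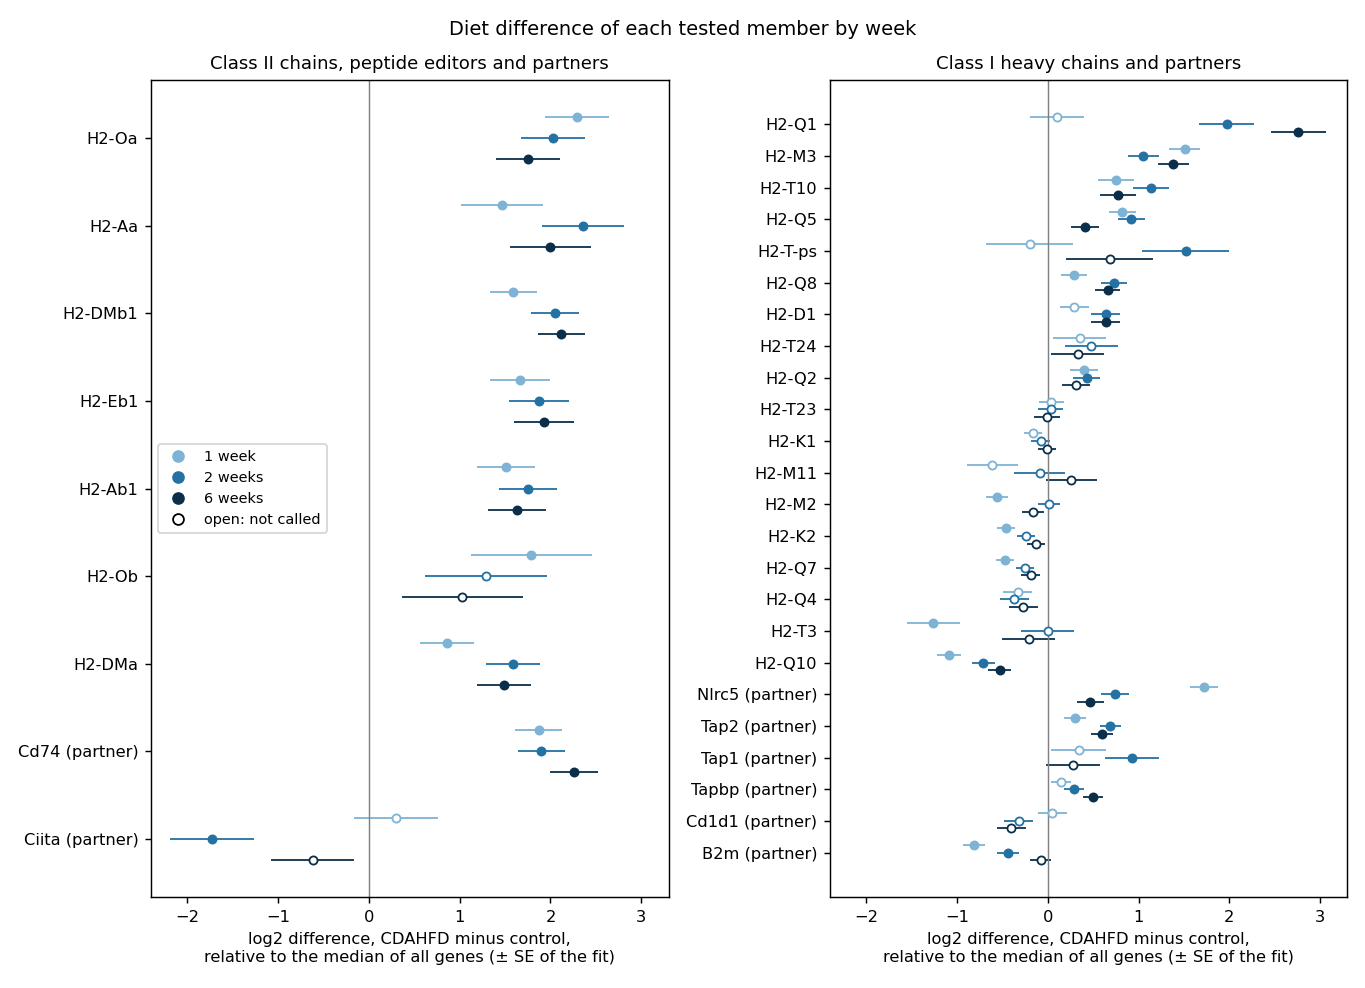
Log2 difference, CDAHFD minus control, after subtracting the all-gene median (± SE of the fit), of each tested member except H2-Ke6 at 1, 2 and 6 weeks; filled points were called at an adjusted p below 0.05 and open points were not. Every class II gene lies right of 0 at each week, from 0.86 to 2.36, while class I genes lie on both sides, from H2-T3 at -1.26 to H2-Q1 at 2.76.

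The diet difference changed between weeks for 2 of 34 members by F test, where 2.4% of all genes did. Between 1 and 6 weeks 2 members changed (5.38% of all genes), and between 1 and 2 weeks 1 did (1.27%), Nlrc5 at -1.04 ± 0.21 (adjusted p = 0.046). H2-Q1 rose further with time (adjusted p = 0.0316), and its difference at 6 weeks minus that at 1 week was 2.59 ± 0.43 (adjusted p = 0.0151), in a comparison that called 2.51% of all genes higher. The diet difference of Nlrc5 narrowed (adjusted p = 0.0228), by 1.32 ± 0.21 on the log2 scale from 1 to 6 weeks (adjusted p = 0.0118). In that comparison 2.87% of all genes were called lower. All CDAHFD levels of Nlrc5 lay between -1.39 and -1.18, while its control levels differed between the weeks. Against the later controls the value of Nlrc5 was -0.17 and its F test gave an adjusted p of 0.746. The change of H2-Q1 from 1 to 6 weeks was not called without control replicate 1 of 6 weeks (2.47). For class II genes limma called 0 of 7 in the 6-week minus 1-week comparison, where 0 also had an unadjusted p under 0.05. Without either CDAHFD array of 2 weeks or either control array of 6 weeks the F test called 0 members, with 4, 3, 4 and 5 at an unadjusted p under 0.05.

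Some genes that serve class II inside the endosome were higher too, in a list made from general knowledge. Of 9 tested, 5, 5 and 7 were called higher at the 3 weeks, where 25.9%, 22.9% and 24.5% of all genes were, and the median difference was 0.37, 1.12 and 1.36. Ctsh, a cathepsin, differed by -0.37, -0.13 and -0.17 and Marchf8, a ubiquitin ligase, by -0.07, -0.23 and -0.17, none of them called. Ctss, the cathepsin that trims the invariant chain, was higher by 2.02 ± 0.28, 3.0 ± 0.28 and 3.11 ± 0.28 (adjusted p = 0.000383, 3.83e-05 and 2.51e-05). Lgmn, an endosomal protease, was higher by 0.84, 1.53 and 1.54, and Ctsd by 0.37, 1.12 and 1.36. Marchf1, a ubiquitin ligase that takes class II off the surface, was higher by 1.56, 2.26 and 2.19.

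Of 11 tested genes of class I processing, 3, 4 and 2 were called higher and 1, 1 and 0 lower, with medians of -0.11, 0.09 and 0.20. Of all genes, 22.9% were called higher at 2 weeks, and 15%, 14.9% and 16.2% lower at the 3 weeks. At 1 and 6 weeks the share called higher was near that of all genes (25.9% and 24.5%), and the lists were not tested against each other. At 6 weeks limma also gave 0 lower at an unadjusted p under 0.05. Psmb8, an immunoproteasome subunit, was higher by 0.51 ± 0.14, 1.13 ± 0.14 and 0.89 ± 0.14 (adjusted p = 0.00406, 8.36e-05 and 0.000359). Psmb10 differed by -0.11, 0.87 and 0.78 and Psmb9 by 0.22, 0.89 and 0.45, with calls at 2 and 6 weeks for the first and at 2 weeks for the second. Tapbpl, a peptide editor related to tapasin, differed by 0.40, 0.68 and 0.37 and was called at 1 and 2 weeks.

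All 6 tested costimulation genes were called higher at every week, with medians of 1.93, 2.22 and 2.09, though Cd40 was well above background on 1 control array and Cd274 on 3. Cd83 was higher by 2.27, 2.62 and 2.64, Icosl by 1.47, 2.14 and 2.11, Cd80 by 0.91, 1.49 and 1.6, and Cd86 by 1.61, 1.33 and 1.38. These encode surface proteins that presenting cells show to T cells beside class II. Among 16 tested regulators shared by both classes, 7, 8 and 7 were called higher, where 25.9%, 22.9% and 24.5% of all genes were, and 0, 2 and 2 lower, the 0 with no gene lower at an unadjusted p under 0.05 either. Irf8, a myeloid and dendritic transcription factor, was higher by 1.58, 1.69 and 2.23, and the interferon gamma receptor genes Ifngr1 and Ifngr2 by 0.82, 1.04 and 1.09 and by 0.87, 1.11 and 0.86. Nfya, an NF-Y subunit, was higher by 1.99, 1.17 and 1.45, while Nfyb differed by -0.06, -0.81 and -0.95 and was called lower at 2 and 6 weeks. Rfxank, a subunit of the RFX complex, differed by -0.40, -0.81 and -0.58 and was likewise called lower at 2 and 6 weeks.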

How the data were processed

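Total RNA of 12 liver samples (150 ng each) was labelled with Cy3 and read on one-colour Agilent arrays, 2 in each of 6 groups of diet and week. The deposited values are the processed signal intensity of each spot, made with Feature Extraction, version 11.5.1.1 per the file headers and 10.7 per the submitters' processing notes. Spots of a probe were averaged over 55681 gene probes. Intensities were divided by each array's 75th percentile over 20137 probes that every array measured well above background, then log2 was taken. Accessions were named through RefSeq (GRCm38.p6): 28664 probes received a symbol and 27017 did not. A gene was read by its strongest probe among those that some group measured well above background on each of its arrays, and every tested member is named. limma 3.58.1 in R 4.3.3 (lmFit, eBayes with trend and robust) fitted 6 group means with 6 residual degrees of freedom, and p-values were adjusted by Benjamini-Hochberg over 13900 genes at a threshold of 0.05. The number of arrays limits the precision. Second probes come from a fit of every passing probe on its own, adjusted over those probes. The members and lists were chosen with earlier results of these data known. The methods were tested on simulated data. Weeks 1 and 2 lay on one slide and week 6 on another, so each comparison of diets is within a slide, while slide and the 6-week comparison with week 1 cannot be told apart. Replicate numbers did not pair samples: deviations of same-numbered samples correlated between -0.14 and 0.22 over 15 pairs, 4 of them over 0.1. The number also marks position: replicate 1 lay in array row 1 and replicate 2 in array row 2 of the slide in every group. Alternatives were other scalings, normexp (offset 50, on median signals), filters, probe rules, array weights, masked dim spots, later controls and leaving out each array.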

Additional observations from a re-analysis of the deposited data

Results flagged for a closer look

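The diet difference of H2-Q1 changed between the weeks (adjusted p = 0.0316 by limma's F test), with values of 0.10, 1.97 and 2.76 at 1, 2 and 6 weeks. The 2 CDAHFD arrays of 1 week stood at -2.27 and -3.46, and both CDAHFD arrays of each later week stood above both control arrays. The diet difference of Nlrc5 also changed between the weeks (adjusted p = 0.0228 by the same test), with values of 1.72, 0.74 and 0.47. Its CDAHFD levels stayed between -1.39 and -1.18 while its control levels were -2.87 and -3.29 at 1 week, -2.14 and -2.03 at 2 weeks and -1.80 and -1.68 at 6 weeks. Why the 1-week control arrays were lower was not tested.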

How the results depend on the processing

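Each gene result was compared with its value as processed here under each setting, up to 170 results a setting. Of these comparisons, 3825 were unchanged, 183 lost a call, 65 gained a call and 21 turned. The unchanged ones include results called in neither, and the counts do not give results stable over all settings. Class I genes called higher at 1 week (5) were 3 with median centring, 8 with quantile normalization and 3 with the percentile over all probes. Those called lower at 1 week (5) were 2 with quantile normalization, 11 with no filter, 8 with every probe fitted separately, 1 against later controls and 3 with only that week's arrays. Those called lower at 2 weeks (1) were 3 with median centring, 4 with the percentile over all probes, 2 with normexp, 2 with the mean of a gene's probes and 3 with every probe. Those lower at 6 weeks (1) were 5 with the percentile over all probes and 4 with every probe, and in the average (5) they were 2 with quantile normalization, 10 with no filter, 8 with every probe and 3 against later controls. Class II genes called higher at 1 week (7) were 4 with normexp. Leaving out each array gave 4 to 7 for class II at 1 week, 7 to 7 in the average, 2 to 6 for class I higher and 1 to 5 for class I lower at 1 week, 5 to 8 higher at 2 weeks, 3 to 6 higher and 0 to 1 lower at 6 weeks, and 3 to 6 lower in the average. Changes from 1 to 6 weeks (1 higher, 1 lower) were 2 higher with probes above background on all arrays and with dim spots masked, 2 lower with every probe and 0 lower against later controls, and 0 to 2 higher and 1 to 2 lower with an array left out. Members called by the F test (2) were 1 each with normexp, the mean of probes, eBayes without trend, array weights and later controls, and 0 to 3 with an array left out. Turned values under quantile normalization were B2m -0.01, H2-Q4 -0.01, H2-K1 0.52, H2-K2 0.19 and H2-Q7 0.22 in the average, H2-K1 0.57, H2-K2 0.18 and H2-Q7 0.18 at 1 week, and H2-K1 0.55 at 2 weeks. With the mean of probes they were H2-K1 0.45 at 2 weeks and 0.27 in the average and H2-Q2 -0.23 at 1 week and -0.12 in the average. With normexp they were H2-Ob 0.07 at 1 week and -0.07 in the average, H2-T-ps -0.04 at 2 weeks and -0.20 in the average, and H2-T24 -0.03 in the average. Against later controls they were H2-M2 0.09 and H2-T3 0.19 at 1 week and H2-T3 0.00 in the average. Values are relative to the median of all genes and signs were judged before that subtraction. With the replicate number as a block, which is also the array's row on the slide, 169 of 170 results kept their call, H2-Ob at 1 week (1.79) lost it, and the F test called 2. The share of higher calls over all genes was 63.3%, 60.5%, 60.2% and 58% at 1, 2, 6 weeks and in the average, against 45.5%, 48.9%, 48.2% and 44.8% with median centring, 36.1%, 39.3%, 38.1% and 36.3% with the percentile over all probes, 33.2%, 48.1%, 53.3% and 35.2% with normexp and 43.8%, 57.8%, 60.7% and 41.5% with no filter. The cause of these changes was not tested.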

Other observations

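The B cell markers Cd79a, Pax5 and Blk were well above background on no array. Of 6 tested T and NK cell markers, 3, 2 and 3 were called higher, where 25.9%, 22.9% and 24.5% of all genes were. In the same comparisons 2, 0 and 0 were called lower, where 15%, 14.9% and 16.2% of all genes were. Gzmb, one of the 6, could be tested only through the CDAHFD arrays. The sinusoidal endothelium sum was 5.59 to 6.25 on CDAHFD against 8.43 to 8.59 on control arrays at 6 weeks. At that week 3 of its 5 markers were called lower, where 16.2% of all genes were, and Lyve1 was called higher (1.01, adjusted p = 0.0121). H2-M10.4 was well above background on 1 array alone, CDAHFD replicate 2 of 1 week, at -6.09, against -9.45 on CDAHFD replicate 1 and -8.30 and -8.92 on the control arrays of that week.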
